A study of Mus musculus with 3 samples.

Results

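The opioid family comprises 4 precursor genes, Penk, Pdyn, Pomc and Pnoc, and 4 receptor genes, Oprm1, Oprd1, Oprk1 and Oprl1. These 8 genes were taken by symbol from the 54532 genes of the deposited table, and all 8 were among the 20203 measured genes (mean FPKM over the libraries no lower than 0.1), where FPKM is a fragment number scaled to gene length and library size. RNA of prelimbic cortex (PrL) tissue was sequenced in 3 libraries, 1 per group, named CUMS vehicle, CUMS oe-circ (circular RNA overexpressed) and CUMS oe-pep (its protein overexpressed). The animals were male C57BL/6J mice of 6 to 8 weeks that received an adeno-associated virus (AAV/9) in the PrL on both sides and were then exposed to a changing series of mild stressors (chronic unpredictable mild stress, CUMS) for 5 weeks. The CUMS vehicle vector held the hSyn promoter without an insert and EGFP behind a CMV promoter. The CUMS oe-circ vector carried the circular RNA circFKBP8 between the same elements. The CUMS oe-pep vector carried cFKBP8, the protein made from that circular RNA, with a 3×Flag tag and EGFP joined by P2A. The hSyn promoter is active in neurons, so overexpression was directed to neurons while the RNA came from all cells of the tissue piece. CUMS was thus shared by all 3 groups, and mice without CUMS were not analysed here. The number of mice behind a library is not given in the sources used here.

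Opioid peptides are cut from large precursor proteins and act on inhibitory G protein-coupled receptors. Penk gives the enkephalins, which act mainly on the delta receptor (Oprd1) and the mu receptor (Oprm1). Pdyn gives the dynorphins, the ligands of the kappa receptor (Oprk1), and Pomc gives beta-endorphin, a ligand of the mu receptor, along with ACTH and melanocortins. Pnoc gives nociceptin, the ligand of Oprl1, a receptor of the same family that binds classical opioids poorly. In the forebrain, Penk and Pdyn are abundant in striatal projection neurons and are also made by cortical interneurons. Kappa receptor signaling is known for its part in the aversive effects of stress, and delta receptor agonists for antidepressant-like effects in rodents.

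The 8 genes lie at separate loci of the mm10 genome, and all are protein coding. Penk is at chr4:4133531-4138819, Pdyn at chr2:129686565-129699844, Pomc at chr12:3954951-3960642 and Pnoc at chr14:65400673-65425472. Of the receptor genes, Oprm1 is at chr10:6758506-7038198, Oprd1 at chr4:132110726-132144486, Oprk1 at chr1:5588466-5606131 and Oprl1 at chr2:181715016-181720985. All 8 had the same coordinates in the GENCODE vM21 annotation, and the length used for each FPKM equalled the summed exons there. Oprm1 has 31 annotated transcripts, the most of the family. Its exons share 96 bases with those of Ipcef1 on the opposite strand, which had 2026 to 2165 reads per library, and the strand setting of the counting is not given in the sources used here. Penk shares 233 exon bases with the antisense transcript A830012C17Rik, which had at most 2 reads.

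Promoter sequence from RefSeq (GRCm38.p6) was found for 5 of the 8 genes, and 3 of these are shown because they are one member that was lower in both overexpression libraries (Pdyn), one that lay in opposite directions in them (Pomc) and one that was higher in both (Oprd1). Each is the 250 bases before an annotated start, given 5′ to 3′ on the strand of the gene. Capitals mark a match to TATAAA on either strand. The Pdyn window shown, 1 of 2 for this gene, is chr2:129699939-129700188 on the minus strand. The Pomc window is chr12:3954695-3954944 on the plus strand and the Oprd1 window chr4:132144487-132144736 on the minus strand.
Pdyn: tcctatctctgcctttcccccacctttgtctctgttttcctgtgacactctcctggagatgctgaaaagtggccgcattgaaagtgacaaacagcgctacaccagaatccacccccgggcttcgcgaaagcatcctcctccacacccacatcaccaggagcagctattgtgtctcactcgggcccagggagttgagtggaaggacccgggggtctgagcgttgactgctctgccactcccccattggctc
Pomc: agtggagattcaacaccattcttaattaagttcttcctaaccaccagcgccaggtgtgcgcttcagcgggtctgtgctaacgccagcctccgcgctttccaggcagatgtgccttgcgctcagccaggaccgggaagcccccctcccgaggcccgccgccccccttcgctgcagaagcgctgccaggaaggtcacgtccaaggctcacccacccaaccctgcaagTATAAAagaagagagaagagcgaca
Oprd1: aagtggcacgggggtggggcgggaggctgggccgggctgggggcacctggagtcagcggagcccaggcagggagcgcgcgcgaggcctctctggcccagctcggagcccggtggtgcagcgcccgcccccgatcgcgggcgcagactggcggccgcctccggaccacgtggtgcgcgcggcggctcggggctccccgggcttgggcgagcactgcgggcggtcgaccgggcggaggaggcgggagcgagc
Guanine and cytosine made up 57.2% of the Pdyn window shown, 60% of the Pomc window and 80% of the Oprd1 window. The other Pdyn window, chr2:129698659-129698908, had 44%. The TATAAA match of Pomc began 25 bases before the start. Over the 10 windows of the 5 genes, the cAMP response element core CGTCA had 0 matches, the AP-1 motif TGANTCA had 0 and TATAAA was in 2 (Pomc and Oprl1), all searched on both strands, and none of the motifs contains another. Of all 32851 windows of this length, 17.8% held CGTCA, 6.75% TGANTCA and 12.4% TATAAA. The matches describe letters only, and no binding was measured.

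The libraries held 14413544 to 18084058 reads in genes, recovered from the FPKM and the gene lengths. Intervals given below are 95% intervals from these reads, exact for a single gene and approximate for the ratio of 2 genes, and cover counting error only. Since each group had 1 library, replicates could not be compared and no test of the groups was made, and a change was called by size alone, at more than 2-fold on the log2(FPKM + 0.1) scale, which understates changes of low genes. All 8 members averaged 20 or more reads. In the vehicle library the PrL label was met by high cortical excitatory markers, such as Slc17a7, the vesicular glutamate transporter gene, with an FPKM of 235. Genes listed as markers of striatal projection neurons, which are not cortical cells, were also present there. Examples were Ppp1r1b with an FPKM of 153 and Adora2a, an adenosine receptor gene, with 32.9. The cells that held these transcripts were not identified.

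Penk was the highest member in every library, with an FPKM of 241 in the vehicle library, 65.5 in the oe-circ library and 152 in the oe-pep library. It made up 87.5%, 79.2% and 87.6% of the summed FPKM of the 4 precursors in that order. Pdyn came next with 29.7, 12.7 and 15.8. Among the receptors, Oprl1 was highest at 9.62, 10.4 and 10.1, followed by Oprd1 at 5.11, 6.43 and 7.62. Pnoc stood at 3.48, 3.98 and 3.76. Oprk1 had an FPKM of 1.48, 0.556 and 1.04, and Oprm1 was the lowest member throughout at 0.188, 0.145 and 0.201 (28, 17 and 27 reads). Pomc had 1.07, 0.521 and 1.99 (26, 10 and 44 reads). The order Penk, Pdyn, Oprl1, Oprd1, Pnoc held in all 3 libraries, and the Poisson intervals of neighbors in it did not overlap. Oprk1 and Pomc were neighbors with overlapping intervals in the vehicle and oe-circ libraries, whereas Pomc was above Oprk1 in the oe-pep library, where the intervals did not overlap.

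**Figure D1:**
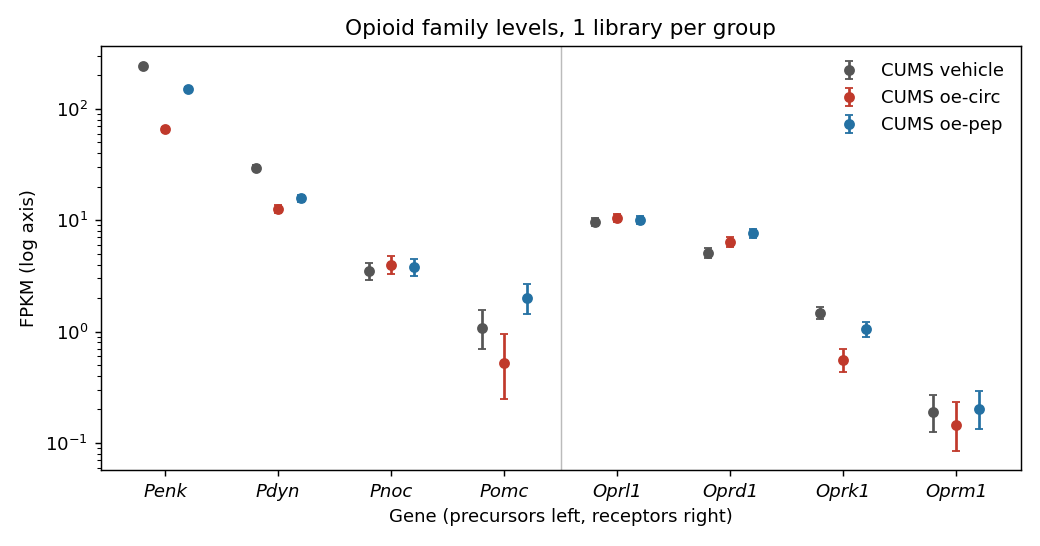
FPKM of the 8 genes (log axis) in the vehicle (grey), oe-circ (red) and oe-pep (blue) libraries, 1 library per group. Bars are exact 95% Poisson intervals and cover counting error only. Penk spans 65.5 to 241 and Oprm1 0.145 to 0.201.

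In the oe-circ library, the enkephalin and dynorphin precursors and the kappa receptor were more than 2-fold lower than in the vehicle library, and the nociceptin pair was close to the vehicle level. Of the 8 members, 3 were more than 2-fold lower and 0 higher, where 6.42% of all genes measured were lower and 3.5% higher. Of the 14551 genes that averaged 20 or more reads, 1.04% were lower and 0.33% higher. Penk had 7280 reads in the vehicle library and 1558 in the oe-circ library, and its FPKM was 3.67-fold lower (interval 3.48 to 3.88, log2 fold change −1.88). From the lowest value upward, it ranked 32 of those 14551 genes. Pdyn had 1587 and 533 reads and was 2.34-fold lower (2.12 to 2.59). Its receptor gene Oprk1 had 251 and 74 reads and was 2.67-fold lower (2.05 to 3.5). The intervals of these dynorphin system genes overlapped. Oprk1 has a low FPKM, and with a pseudocount of 1 in place of 0.1 its log2 fold change was −0.67, within 2-fold. In bulk tissue, fewer cells that make a transcript and less of it per cell cannot be told apart.

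The other members were within 2-fold in the oe-circ library. Pomc had 26 and 10 reads and a ratio of 0.489 whose interval included 1 (0.211 to 1.05). That ratio is 2.04-fold lower, and Pomc counts as within 2-fold only through the pseudocount of 0.1 (log2 fold change −0.91). Oprm1, with 28 and 17 reads, had a ratio of 0.772 (0.397 to 1.46), an interval that includes 1 and a 2-fold lower level of the mu receptor gene but not a 2-fold higher one. Oprd1 was 1.26-fold higher (1.09 to 1.46). Pnoc was at 1.14 times (0.891 to 1.47) and Oprl1 at 1.08 times (0.965 to 1.21) the vehicle level, and both intervals included 1. The median log2 fold change was −1.06 over the 4 precursors and −0.06 over the 4 receptors, where the median of all genes measured was −0.00424.

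In the oe-pep library, Penk, Pdyn and Oprk1 were again below the vehicle library, by smaller factors, and Oprd1 and Pomc were above it. None of the 8 members passed 2-fold, where 4.93% of all genes measured were lower and 4.54% higher (0.385% and 0.364% of those averaging 20 or more reads). Pdyn was the nearest, with 1587 reads in the vehicle library and 763 in the oe-pep library (1.88-fold lower, 1.73 to 2.05, log2 fold change −0.91). Penk had 7280 and 4158 reads (1.58-fold lower, 1.52 to 1.65) and Oprk1 251 and 160 (1.42-fold lower, 1.16 to 1.74). These intervals stayed clear of 1. Oprd1 had 380 and 513 reads and a 1.49-fold higher FPKM (1.30 to 1.71). Pomc had 26 and 44 reads (1.87-fold higher, 1.13 to 3.16). The intervals of Pnoc (0.847 to 1.38), Oprm1 (0.604 to 1.88) and Oprl1 (0.938 to 1.17) included 1. Over the precursors the median log2 fold change was −0.28, and over the receptors 0.06.

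Both comparisons above use the same vehicle library, and the overexpression libraries were therefore also set against each other. Of the 8 members, 2 were more than 2-fold lower in the oe-circ library than in the oe-pep library and 0 were higher, where 6.26% of all genes measured were lower and 4.31% higher (0.921% and 0.33% of those averaging 20 or more reads). Penk was 2.32-fold lower (2.19 to 2.46). Pomc, with 10 and 44 reads, was 3.82-fold lower (1.90 to 8.52), but lay within 2-fold with a pseudocount of 1. Oprk1 was 1.88-fold lower (1.42 to 2.51). Pdyn differed less, by 1.24-fold (1.11 to 1.39), and Oprd1 by 1.19-fold (1.04 to 1.36). Thus the members that were low in both overexpression libraries were not low in the same proportion. The fold below vehicle was larger for Penk than for Pdyn in the oe-circ library, and larger for Pdyn in the oe-pep library. The intervals of Penk and Pdyn did not overlap in either comparison.

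**Figure D2:**
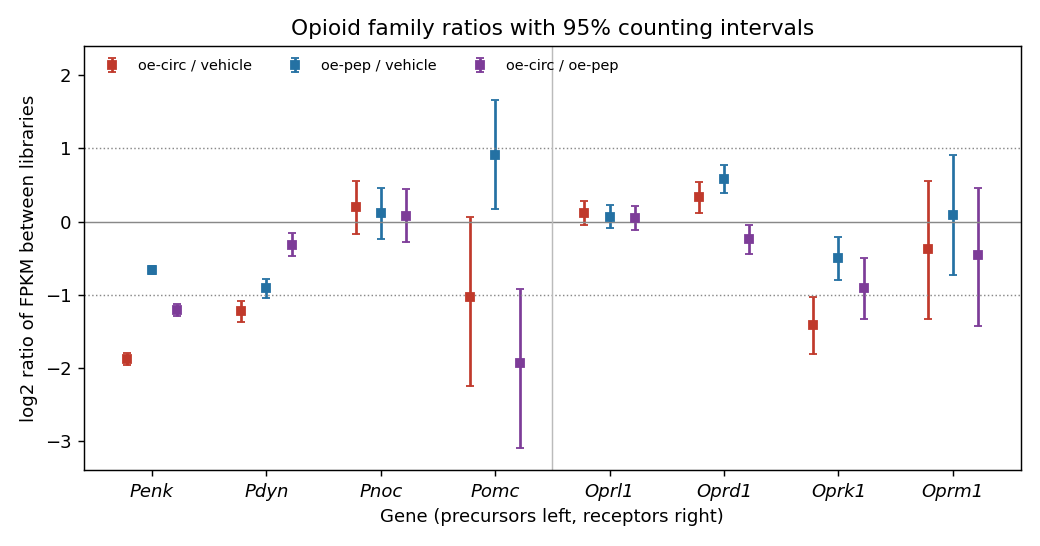
Log2 ratio of FPKM between libraries for the 8 genes, without a pseudocount, for oe-circ over vehicle (red), oe-pep over vehicle (blue) and oe-circ over oe-pep (purple). Bars are exact 95% counting intervals, and dotted lines mark 2-fold. Penk, Pdyn and Oprk1 lie below 0 in both comparisons with vehicle, Oprd1 above 0, and Pnoc and Oprl1 near 0 with intervals that include it.

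Ligand and receptor were next compared within each library, as the ratio of precursor FPKM to receptor FPKM. The enkephalin to delta receptor ratio (Penk to Oprd1) was 47.1 in the vehicle library, 10.2 in the oe-circ library and 19.9 in the oe-pep library. It was thus 4.62-fold lower in the oe-circ library (3.97 to 5.39) and 2.36-fold lower in the oe-pep library (2.06 to 2.71), more than Penk alone, since Oprd1 was higher in both. The Penk to Oprm1 ratio was 2.84-fold lower in the oe-circ library (1.55 to 5.20) and 1.69-fold lower in the oe-pep library, where the interval included 1 (0.994 to 2.87). The dynorphin to kappa receptor ratio (Pdyn to Oprk1) was 20.04, 22.8 and 15.1 in the same order of libraries. Its interval included 1 in the oe-circ library (0.863 to 1.5 times the vehicle ratio), while it was 1.33-fold lower in the oe-pep library (1.07 to 1.65). The nociceptin ratio (Pnoc to Oprl1) was 0.362, 0.383 and 0.374, so this receptor gene was higher than its precursor gene in every library. The beta-endorphin ratio (Pomc to Oprm1) was 5.66, 3.59 and 9.94 on few reads, and its intervals against the vehicle library included 1. Summed over the family, the precursors had an FPKM of 275, 82.7 and 173, and the receptors 16.4, 17.5 and 18.9. The mRNA of a precursor is not a measure of released peptide.

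**Figure D3:**
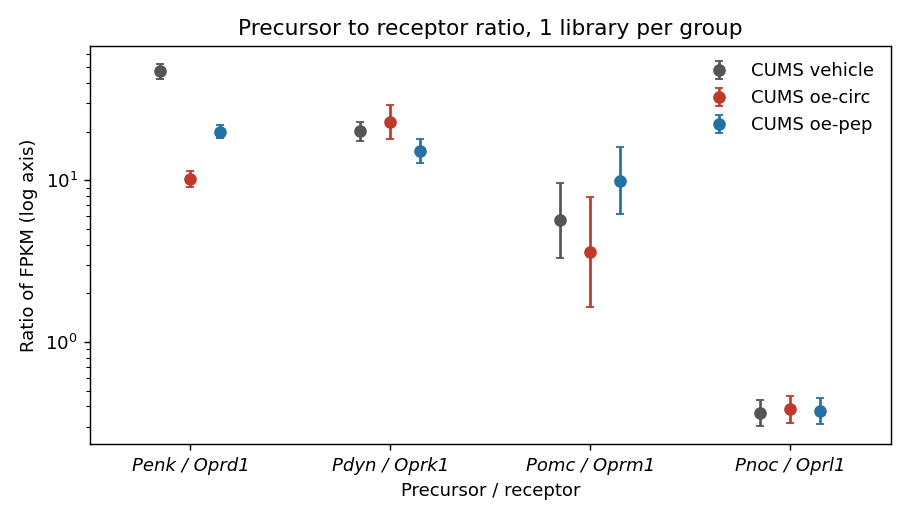
Ratio of precursor FPKM to receptor FPKM (log axis) in the vehicle (grey), oe-circ (red) and oe-pep (blue) libraries. Bars are 95% counting intervals on the log scale. The Penk to Oprd1 ratio is 47.1, 10.2 and 19.9, and the Pnoc to Oprl1 ratio lies between 0.362 and 0.383.

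Genes that make, destroy or relay opioid peptides were described in the same way, against the 6.42% of all measured genes, and 1.04% of those averaging 20 or more reads, that were more than 2-fold lower in the oe-circ library. None of the 18 genes of precursor processing passed 2-fold in any comparison, with a median log2 fold change of 0.09 in the oe-circ library and −0.02 in the oe-pep library. Cpe, a carboxypeptidase that trims prohormones, had an FPKM of 944, 902 and 941, and the prohormone convertase gene Pcsk2 49.3, 60.8 and 53.0. Of 14 genes of peptide degradation, 1 was more than 2-fold lower in the oe-circ library and 0 in the oe-pep library. It was Mme, which encodes neprilysin, an enzyme that degrades enkephalins, with an FPKM of 1.86, 0.840 and 1.56, and it lay within 2-fold with a pseudocount of 1. Of the 39 measured genes of receptor signaling, 3 were more than 2-fold lower in the oe-circ library and 0 in the oe-pep library. These were Rgs9, a regulator of G protein signaling (17.9, 5.26 and 16.1), the G protein subunit gene Gng7 (99.6, 43.2 and 84.6) and the adenylyl cyclase gene Adcy5 (79.5, 39.1 and 72.2). All 3 also stand in the list of striatal projection neuron markers. Median log2 fold changes of this list were −0.05 and −0.02.

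Striatal projection neuron markers moved with Penk, Pdyn and Oprk1 in the oe-circ library and much less in the oe-pep library. Of 22 such markers, none of them a family member, 17 passed 2-fold downward in the oe-circ library and 0 upward. Their log2 fold changes ran from −2.06 to −0.50 around a median of −1.47. Their summed FPKM was 771 in the vehicle library, 322 in the oe-circ library and 717 in the oe-pep library. In the oe-circ library, 2 of the 22 markers had a lower log2 fold change than Penk, 14 a lower one than Pdyn and 14 a lower one than Oprk1. In the oe-pep library, 0 of the 22 passed 2-fold and their median was −0.11, and 2 had a lower log2 fold change than Penk (Tac1 at −0.76 and Isl1 at −0.67), 2 lower than Oprk1 and 0 lower than Pdyn. No list member was at 0 reads in all libraries. The part of striatal tissue in the values of the opioid genes was not tested.

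Penk and Pdyn were also set against single genes of the neurons that carry them, chosen after their values had been seen. Penk belongs to the striatal neurons that express Adora2a and Drd2, and Pdyn to those that express Drd1. The Penk to Adora2a ratio was 7.31 in the vehicle library, 8.37 in the oe-circ library and 5.28 in the oe-pep library. Against the vehicle library it was 1.14 times as high in the oe-circ library (1.01 to 1.30) and 1.39-fold lower in the oe-pep library (1.28 to 1.5). The Penk to Drd2 ratio was 10.7, 9.60 and 6.73, 1.59-fold lower in the oe-pep library (1.44 to 1.75) with an interval that included 1 in the oe-circ library (0.775 to 1.04). The ratio of Penk to Gpr6, a receptor gene of the same neurons, was 16.7, 13.4 and 11.4, lower by 1.24-fold in the oe-circ library (1.02 to 1.52) and 1.47-fold in the oe-pep library (1.28 to 1.69). In the oe-circ library the direction for Penk thus depended on the gene it was set against. The Pdyn to Drd1 ratio was 1.65, 1.91 and 0.970, and was 1.70-fold lower in the oe-pep library (1.5 to 1.91) with an interval that included 1 in the oe-circ library (0.996 to 1.36). The Pdyn to Tac1 ratio was 1.20, 1.49 and 1.08, and against vehicle it was 1.23 times as high in the oe-circ library (1.07 to 1.43), while its interval included 1 in the oe-pep library (0.797 to 1.01). The ratio of Pdyn to Isl1, a transcription factor gene of the Drd1 neurons, was 23.2, 38.5 and 20.5. Against vehicle it was 1.66 times as high in the oe-circ library (1.005 to 2.75), with an interval that included 1 in the oe-pep library (0.623 to 1.26). In the oe-circ library, the interval of the Pdyn ratio thus lay above 1 for Tac1 and included 1 for Drd1. For Isl1, with 94 reads in the vehicle library and 19 in the oe-circ library, its lower end only just passed 1. In the oe-pep library, Penk was thus lower relative to each of its 3 genes. Pdyn was lower relative to Drd1 but not distinguishably relative to Tac1 or Isl1. Among the 22 striatal markers, Tac1 (−0.76) and Isl1 (−0.67) had the lowest log2 fold changes in the oe-pep library. Those of Adora2a (−0.19), Drd1 (−0.15), Gpr6 (−0.11) and Drd2 (0.003) were smaller in size. A difference between Penk and Pdyn here therefore depends on the genes chosen, and nothing is concluded from it.

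Other lists gave a mixed background. Of 24 measured markers of the hypothalamus, preoptic area and septum, which hold other cells that make opioid precursors, 14 were more than 2-fold lower and 0 higher in the oe-circ library (median −1.36), and 10 lower and 1 higher in the oe-pep library (median −0.84). These markers are low, and with a pseudocount of 1 the number beyond 2-fold was 9 in the oe-circ library and 4 in the oe-pep library. The 1 higher was Ghrh, with 1 read in the vehicle library and 4 in the oe-pep library. In the oe-pep library, 14 of the 24 had a lower log2 fold change than Penk, 11 a lower one than Pdyn and 16 a lower one than Oprk1. In the oe-circ library these numbers were 11, 13 and 12. The log2 fold changes of the list ran from −3.42 to 0.19 in the oe-circ library and from −3.22 to 1.34 in the oe-pep library. This range is too wide to set Penk, Pdyn and Oprk1 apart, since Pnoc and Oprl1 also lay inside it in the oe-pep library. The summed FPKM of the list was 61.1, 22.9 and 32.5. Among 21 GABA interneuron markers, 2 were lower in the oe-circ library, Dlx5 (−1.29) and Dlx6 (−1.46), and 0 in the oe-pep library. Medians were −0.11 and −0.18, with Sst at an FPKM of 370, 321 and 328. These markers did not move together. In the oe-circ library 14 lay below 0 and 7 above, among the latter Pvalb (0.46) and Vip (0.81). In the oe-pep library 16 lay below 0 and 5 above. The summed FPKM of that list was 834, 745 and 742. The 18 cortical excitatory markers had medians of 0.40 and 0.12, with 1 more than 2-fold lower in the oe-circ library, and sums of 890, 1078 and 945. That marker was Foxp2 (−1.03), and it lay within 2-fold with a pseudocount of 1. The log2 fold change of Oprd1 was above that of all 18 in the oe-pep library and of 7 in the oe-circ library. For Pomc, the pituitary hormone genes Prl, Fshb and Cga had 0 reads in every library, and Gh had 1, 0 and 2 reads in the vehicle, oe-circ and oe-pep libraries. Of the pituitary transcription factor genes, Pou1f1 had 0, 0 and 4 reads, Tbx19 had 0, 0 and 1, and Pitx1 had 0, 1 and 0. These reads were too few to compare the libraries, and a pituitary part in the Pomc values was not tested. The 2 pituitary markers that were measured were Tshb, with 24, 20 and 27 reads, and Lhb, with 5, 4 and 4. Their median log2 fold changes were 0.04 in the oe-circ library and 0.05 in the oe-pep library. Oligodendrocyte markers summed to 968, 823 and 1437, with none of 11 beyond 2-fold in either comparison with vehicle. None of the 9 claustrum and deep layer 6 markers found, cells in which Oprk1 is also known, passed 2-fold (medians −0.28 and −0.05, sums of 67.3, 55.8 and 62.8). Of these 9, 7 lay below 0 and 2 above in the oe-circ library (lowest −0.88). The oe-pep library had 5 below and 4 above (lowest −0.64). The 7 striosome markers, a striatal compartment rich in the mu receptor, had medians of −0.19 and −0.13, with 0 beyond 2-fold and sums of 36.6, 25.9 and 33.6. Astrocyte and microglia markers (10 each) had medians of 0.01 and −0.12 in the oe-circ library and 0.09 and −0.16 in the oe-pep library. Of these, 1 astrocyte marker, Agt, passed 2-fold downward in the oe-circ library (−1.05). Vascular and meningeal markers (11) had 0.04 and 0.05, with 1, Ogn, beyond 2-fold upward in the oe-circ library (1.51). Of 9 ependyma and choroid plexus markers, 5 passed 2-fold upward and 1 downward in the oe-pep library, and 1 upward (Folr1, 1.80) and 1 downward (Clic6, −2.57) in the oe-circ library (sums of 14.2, 15.4 and 34.0). The part of these tissues in the results was not tested.

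**Figure D4:**
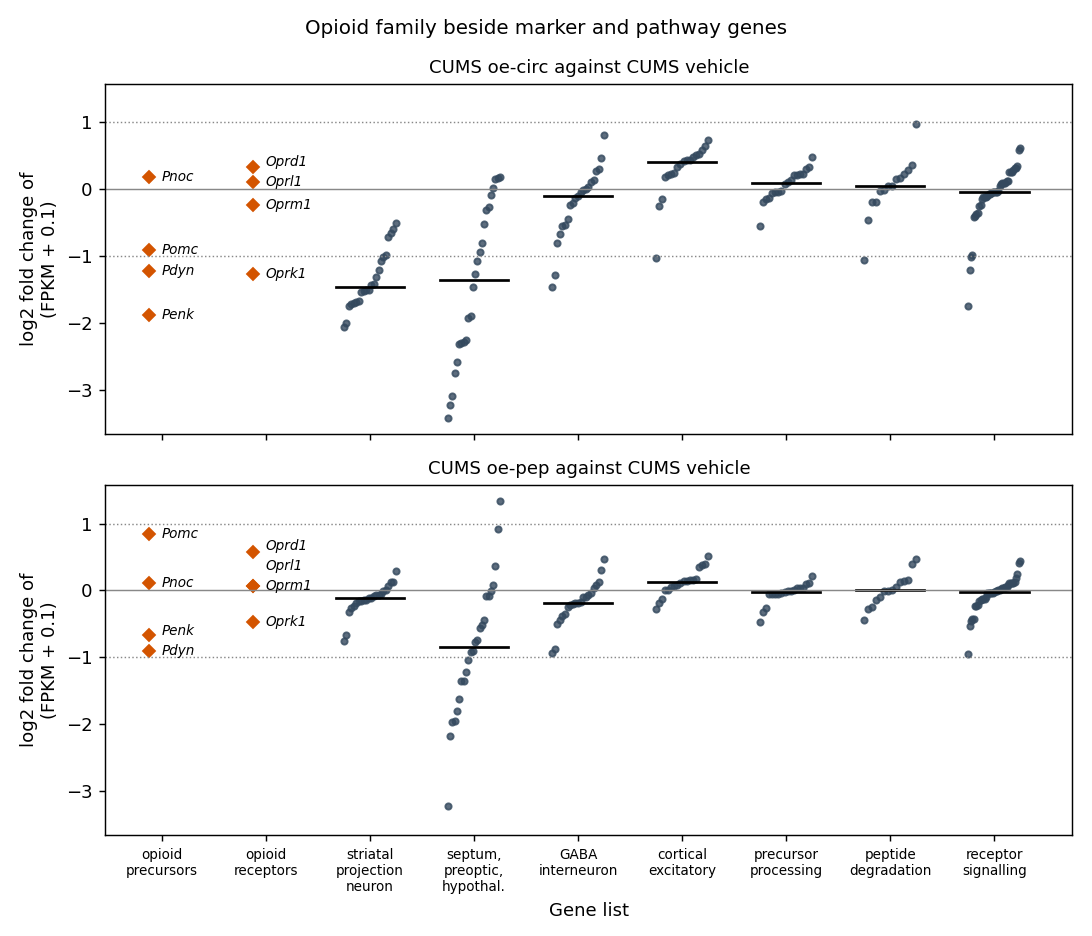
Log2 fold change of FPKM + 0.1 against the vehicle library for the opioid genes (orange diamonds) and for the measured members of 7 gene lists (points, bar at the median), in the oe-circ (top) and oe-pep (bottom) libraries. Dotted lines mark 2-fold. Striatal markers have a median of −1.47 in the top panel and −0.11 in the bottom panel, where Pdyn at −0.91 lies below all 22 of them.

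The genes whose pattern over the 3 libraries was most like each member that passed 2-fold against vehicle (Penk, Pdyn and Oprk1) were found by the distance between their pairs of log2 fold changes against the vehicle library, among the 11297 genes averaging 100 or more reads. Nearest to Penk were Slc35d3 (distance 0.28), with an FPKM of 6.70, 1.62 and 5.02, then Kcna5 and Tacr1, the substance P receptor gene. Nearest to Pdyn were Dlx5 (0.0723), a transcription factor of GABA neurons with an FPKM of 5.25, 2.1 and 2.69, then Arhgap6 and Adamts3. Nearest to Oprk1 were Plppr1 (0.0409) with an FPKM of 2.71, 1.07 and 1.87, then Doc2b and Gprin3. For Penk the nearest genes were farther away than for Pdyn and Oprk1. With 3 libraries such likeness is a description only.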

How the data were processed

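RNA of PrL tissue was sequenced from a strand-specific mRNA kit, 1 library per group. According to the submitters' processing notes, cutadapt 2.5, HISAT2 2.1.0, featureCounts 1.6.3 and the mm10 genome were used. The deposited table gives FPKM per library, calculated by the authors, beside each gene's length in bases. The study's methods name RMA and limma with thresholds on fold and P, and the P was not computed here because each group had 1 library. In every library the product of FPKM and length came in whole steps (100% of genes, within 0.01 read), which gave the reads behind each value and 14413544 to 18084058 reads per library. Because FPKM is relative to the mapped reads, it does not measure the amount of RNA per cell.

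Libraries were compared as log2(FPKM + 0.1) in genes whose FPKM averaged 0.1 or more, and a change was called above 2-fold. Ratios between libraries had exact conditional binomial (Clopper-Pearson) intervals, levels exact Poisson intervals, and ratios of 2 genes intervals from the summed inverse reads, all at 95%. The lists were 3 of the opioid pathway and 12 of cell type markers. The members and lists were chosen with earlier results of these data known. Named were the 8 members, up to 3 of the most abundant genes of a list described, pathway genes beyond 2-fold, and the 3 genes nearest in pattern to each member called against vehicle, and other genes were named after their values had been seen. Smim32 and Ccn2 were not found under those symbols. Promoter motifs were searched in RefSeq windows (GRCm38.p6), and AP-1 and TATAAA were added after the first search. The steps were tested on simulated data. Python 3.11.15, numpy 2.4.6, pandas 2.3.3 and scipy 1.17.1 were used. Alternatives were pseudocounts of 0.01 and 1, median ratio scaling, scaling without mitochondrial genes, an FPKM minimum of 1, no minimum, a minimum of 20 reads and protein-coding genes alone.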

Additional observations from a re-analysis of the deposited data

How the results depend on the processing

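The members kept their side of 2-fold in most alternatives. The 2 called in the direct comparison of the overexpression libraries became 1 with a pseudocount of 1, Pomc then lying within 2-fold. Under that pseudocount Oprk1 had a log2 fold change of −0.67 in the oe-circ library and −0.39 against the oe-pep library. With a pseudocount of 0.01, Pomc passed 2-fold in the oe-circ library. Of 165 recomputed member values, 163 stayed inside their counting interval. That 0 called values reversed was fixed in advance, since a pseudocount cannot change the sign of a fold change. Alternatives that only change which genes are kept leave a member's value as it was. The scalings could move values little, with divisors of 0.998 to 1.002 (median ratio) and 0.941 to 0.944 (without mitochondrial genes). Such divisors are also too close to each other to reverse a called value. The count inside the interval therefore bears mainly on the pseudocounts. Oprm1 gives no value at a mean FPKM of at least 1. The number of all genes called depended strongly on low values. Given as lower and higher in the oe-circ library, in the oe-pep library and between the overexpression libraries, it was 1297 and 707, 995 and 917 and 1265 and 870 as reported. It was 153 and 70, 107 and 109 and 157 and 94 with a pseudocount of 1, 174 and 82, 90 and 90 and 148 and 84 with a mean FPKM of at least 1, 1923 and 1090, 1624 and 1444 and 1887 and 1318 with no filter, 151 and 48, 56 and 53 and 134 and 48 with at least 20 reads, and 308 and 148, 188 and 189 and 312 and 176 with protein-coding genes alone. The counts of striatal markers called stayed within 1.5 times. Those of the hypothalamus, preoptic area and septum list did not, and the minima also removed members of that list. As reported they were 14 of 24 in the oe-circ library and 11 of 24 in the oe-pep library. With an FPKM minimum of 1 they were 7 of 10 and 3 of 10, and with at least 20 reads 10 of 16 and 6 of 16. In the oe-circ library the called share thus did not fall under either minimum. No paired analysis was possible because each group had 1 library, and no replicate could be left out. Depth limits Oprm1 and Pomc most, with 17 to 28 and 10 to 44 reads.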
